A study of Saccharomyces cerevisiae and Saccharomyces pastorianus with 78 samples.

Results

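The comparison described here is between Saccharomyces cerevisiae BY4741 cells held in 7% ethanol (EtOH) for 8 h and the same strain before ethanol was added, across all genes. It uses 6 of the 78 samples of a poly(A) RNA-seq time series on plasma membrane stress, 3 treated and 3 control, chosen by their labels alone. BY4741, which contributes 39 of the 78 samples, is a haploid laboratory strain of mating type a, labelled wild type, that carries deletions of LEU2, MET17 and URA3 and of part of HIS3, and treated and control cells share these deletions. Yeast grew at 25 °C in YPD medium (1% yeast extract, 2% peptone, 2% glucose) to an OD595 of about 0.1. The EtOH 8 h group is the culture 8 h after ethanol, with some extra YPD, was added to bring it to 7% EtOH. The control group was drawn from that same aliquot just before the addition. EtOH 4 h and EtOH 20 h cells came from the same aliquots at those times, and SDS 8 h cells from the other aliquot of each culture, 8 h after the detergent SDS was added to 0.01%, with no control of its own. Each group had 3 biological replicates per the labels. No untreated culture was sampled at 8 h, so the effect of ethanol and that of 8 h more in culture cannot be told apart.

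The libraries held 6216014, 21167236 and 3105804 counts for EtOH 8 h replicates 1, 2 and 3, which include the deepest and the shallowest of the 39 BY4741 libraries, against 7779647 to 8653207 counts in the controls. Levels are given as CPM, counts per 1000000 counts of the library, after each library was scaled by the trimmed mean of M values (TMM). Pairs of EtOH 8 h libraries correlated at 0.976 to 0.994 across genes on the log2 CPM scale and pairs of controls at 0.995, a description over genes that are not independent. LEU2, MET17 and URA3 had 0 counts in all 6 libraries, which allows a level of up to 3 counts per library, or 0.118 to 0.833 CPM.

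Ethanol enters the yeast membrane freely, makes it leakier to protons and other ions, and disturbs protein folding, and yeast both makes ethanol from glucose and can later burn it. Known responses to added ethanol include heat shock proteins, which are driven by the factor Hsf1, general stress genes, which are driven by Msn2 and Msn4, and changes in membrane lipids. Ribosome production is known to fall when yeast growth slows.

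Sequences bound by Hsf1, Msn2 and Msn4 are known to lie before heat shock genes, so the stretches before 3 raised chaperone genes are shown first. Each is the 250 bases that lie 350 to 101 bases before the coding start in the R64 reference genome (RefSeq), on the gene's own strand, and none contains an annotated gene. Capitals mark matches on either strand to the heat shock element bound by Hsf1 (here GAA, any 2 bases, TTC, any 2 bases, GAA) and to the stress response element AGGGG, bound by Msn2 and Msn4.
SSA4 (chrV:364239-364488, plus strand): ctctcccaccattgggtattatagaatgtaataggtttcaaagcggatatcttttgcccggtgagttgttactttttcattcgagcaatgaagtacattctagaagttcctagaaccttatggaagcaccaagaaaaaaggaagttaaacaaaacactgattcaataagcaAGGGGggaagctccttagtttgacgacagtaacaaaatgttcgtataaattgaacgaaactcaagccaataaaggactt
HSP104 (chrXII:88273-88522, plus strand): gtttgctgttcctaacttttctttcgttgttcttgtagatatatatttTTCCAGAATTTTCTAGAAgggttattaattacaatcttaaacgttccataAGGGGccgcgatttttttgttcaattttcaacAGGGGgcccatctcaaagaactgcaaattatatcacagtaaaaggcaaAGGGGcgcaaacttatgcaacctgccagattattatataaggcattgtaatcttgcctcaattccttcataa
HSP42 (chrIV:806271-806520, plus strand): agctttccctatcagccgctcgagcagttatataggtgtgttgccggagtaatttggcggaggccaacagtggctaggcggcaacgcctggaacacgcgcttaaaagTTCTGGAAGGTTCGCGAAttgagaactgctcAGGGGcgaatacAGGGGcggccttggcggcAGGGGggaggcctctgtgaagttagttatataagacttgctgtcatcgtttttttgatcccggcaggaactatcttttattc
The HSP104 window held a pair of overlapping heat shock elements at 302 to 290 and 297 to 285 bases before the start and 3 AGGGG matches. HSP42 held a similar overlapping pair at 243 to 231 and 238 to 226 and also 3 AGGGG matches, while SSA4 held a single AGGGG and no match to the long element in this window. Among the same windows of 5760 tested genes, the heat shock element occurred in 52 (0.903%) and AGGGG in 1169 (20.3%).

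Across the transcriptome, 439 genes were higher and 184 were lower in EtOH 8 h cells than in controls, 623 of 6101 tested (10.2%). The background share of all tested genes was therefore 7.2% called up and 3.02% called down. A gene was called when edgeR's quasi-likelihood test gave a Benjamini-Hochberg adjusted p under 0.05 and the log2 change was at least 1 in size; standard errors (SE) of log2 changes are from the same fit. The median change of all genes was 0.0109 on the log2 scale. Scaling by total counts in place of TMM moved that median to 0.359, and the calls to 865 higher and 42 lower, so that 95.4% of calls were higher, against 70.5% under TMM. All 439 rises were among the 865, and 42 of the 184 falls were kept. Changes below are relative to the TMM scale, and falls of modest size depend on it. In bulk RNA, fewer cells of a kind and less RNA per cell cannot be told apart.

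**Figure D1:**
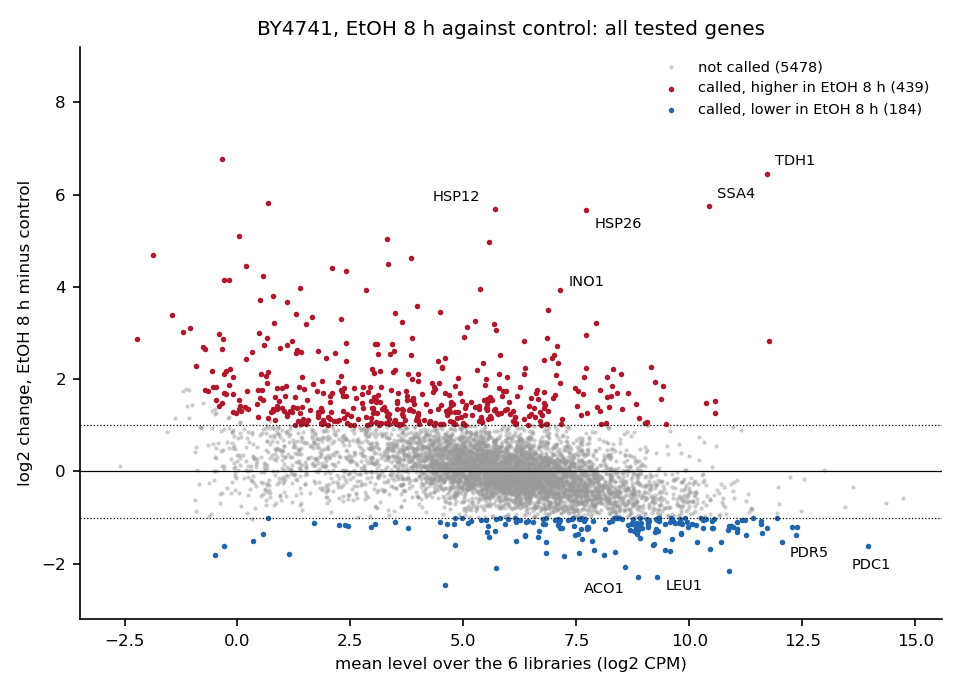
Log2 change (EtOH 8 h minus control, y axis) against the mean level over the 6 libraries (log2 CPM, x axis) for each of 6101 tested genes; red points are the 439 called higher, blue the 184 called lower, and dotted lines mark a change of 1. TDH1, SSA4 and HSP26 stand out as rises at high level, while the falls reach a smaller size, down to -2.45 for MGA1 among genes above 20 CPM.

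Of the tested genes, 961 stood in 1 or more of 62 lists by function, and in most lists few members were called. The shares of called members in the larger lists show rises concentrated in the small heat shock and sorting list and in Hsp70 chaperones. They were also concentrated in glyoxylate and gluconeogenic genes, arginine genes and thiamine or pyridoxine genes. Falls took the largest shares in trehalose genes, ribosomal proteins, the list of septin, separation and daughter genes, and leucine, isoleucine and valine synthesis. No list as a whole was tested against other genes, and the counts below are to be read against the background shares.

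**Figure D2:**
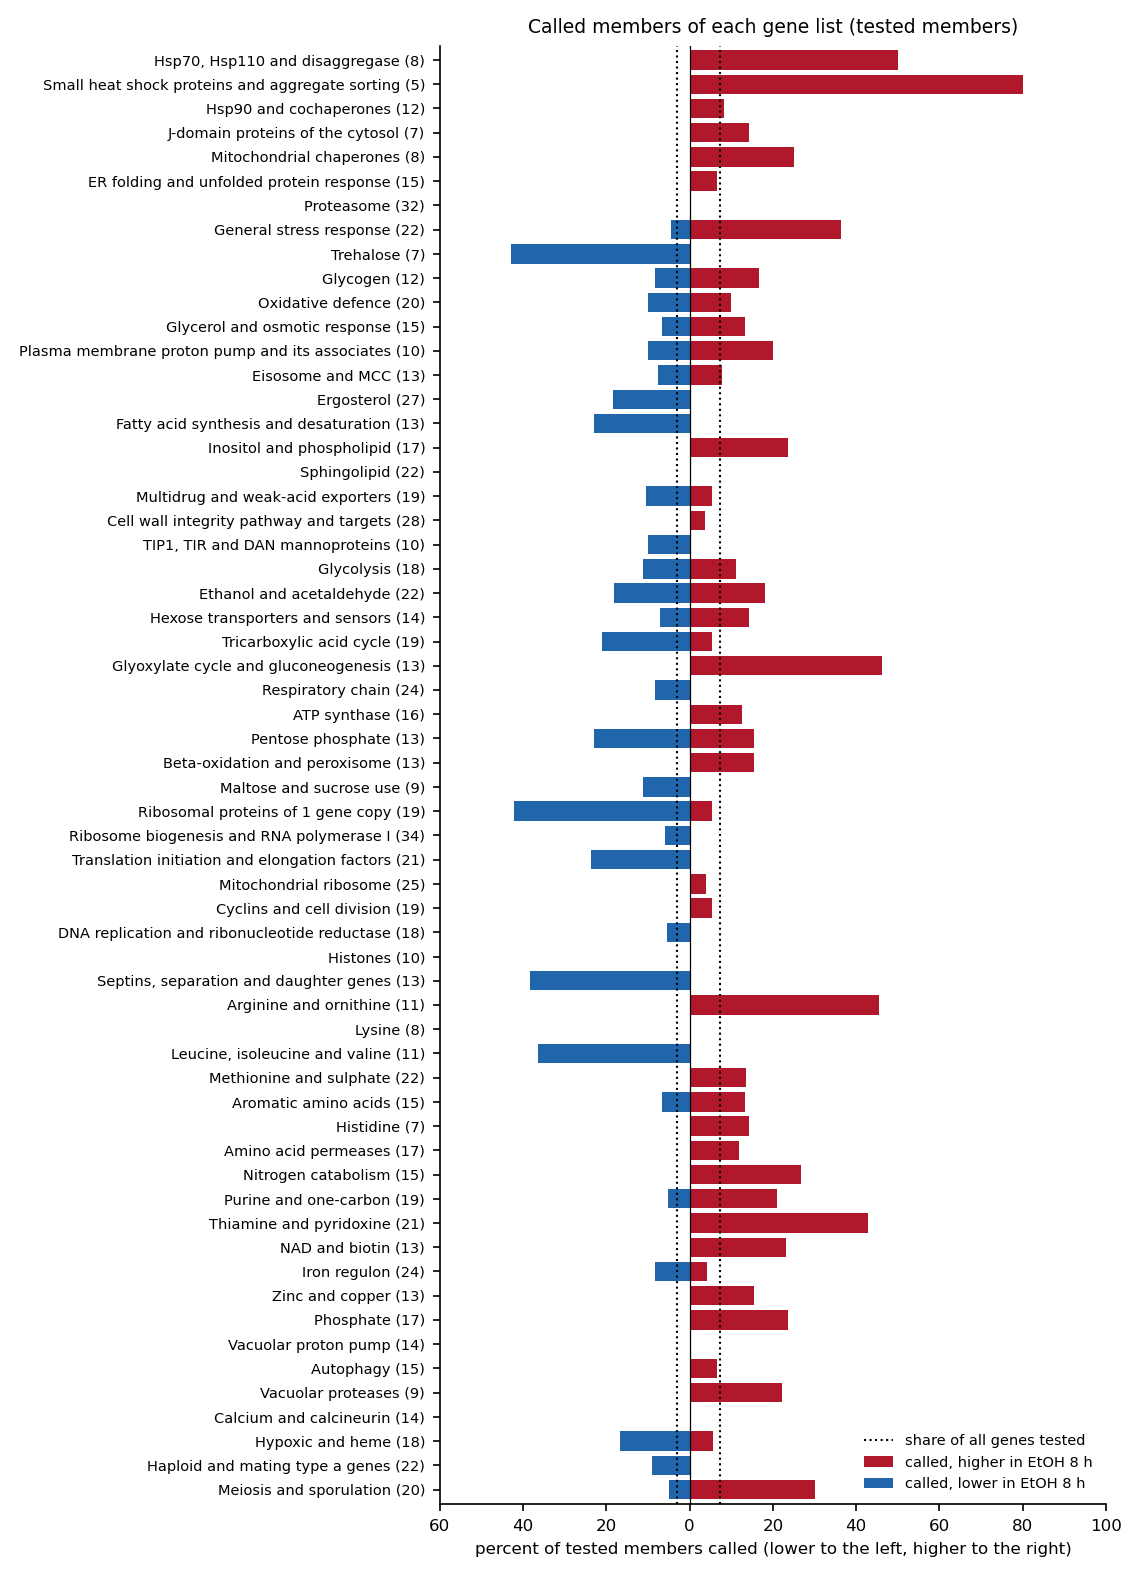
Percent of tested members called higher (red, to the right) or lower (blue, to the left) in EtOH 8 h than in control for the 60 lists with at least 5 tested members; dotted lines are the shares among all tested genes, 7.2% and 3.02%. The list of small heat shock proteins and aggregate sorting has the highest share of rises (4 of 5). Trehalose genes have the highest share of falls (3 of 7).

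Cytosolic chaperones that act on damaged proteins held some of the largest rises. Of 8 genes for Hsp70, its exchange factors and the disaggregase, 4 rose and none fell, with a median change of 1.10, against 0.0109 for all genes (1 fall without EtOH 8 h replicate 3). SSA4 (YER103W, chrV:364589-366517), the Hsp70 made under stress, had 2529.8, 1453 and 4138 CPM in EtOH 8 h libraries, against 55.7, 49.9 and 44.4 CPM in controls. The groups lay far apart, and the log2 change was 5.76 ± 0.65 (SE, edgeR adjusted p = 1.42e-08). SSE2, an exchange factor for Hsp70, had 264, 176 and 261 CPM in EtOH 8 h and 36.6, 40.4 and 29.7 CPM in control. SSA3, a further Hsp70 of stressed cells, rose by 1.76 ± 0.24 on the log2 scale. The Hsp70 genes of normal growth were not called because they fell short of the size threshold. SSA1 was at 0.90 ± 0.29 (edgeR adjusted p = 0.00923) and SSA2 at -0.89 ± 0.22 (edgeR adjusted p = 0.00113).

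HSP104 (YLL026W, chrXII:88623-91349), the disaggregase that pulls proteins out of aggregates, had 2145, 1376 and 2965 CPM in EtOH 8 h and 960.3, 946 and 775 CPM in control. Every treated library lay above every control, and the log2 change was 1.27 ± 0.48 (edgeR adjusted p = 0.0262). That call was lost when EtOH 8 h replicate 3 or any single control was left out, with changes of 0.98 to 1.51 and adjusted p of up to 0.119 over the 6 leave-outs.

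In the list of small heat shock proteins and aggregate sorting, 4 of 5 genes rose, with a median of 2.01. HSP26 (YBR072W), which holds unfolded proteins in a form that can be refolded, had 269.6, 152 and 819 CPM in EtOH 8 h, against 8.59, 7.31 and 8.01 CPM in control. No libraries overlapped, although the treated ones spread more than 5-fold, and the log2 change was 5.68 ± 0.70 (edgeR adjusted p = 6e-08). HSP42 had 1094, 628 and 1509 CPM in EtOH 8 h and 342, 313 and 244 CPM in control, a log2 change of 1.84 ± 0.56. BTN2, which gathers misfolded proteins at set places in the cell, rose by 2.26 ± 0.62, and HSP31 by 2.01 ± 0.18.

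Fewer members were called in the other folding lists. Of 12 Hsp90 and cochaperone genes, only HSP82, the stress-induced Hsp90, was called (1.53 ± 0.42), while HSC82, its near-identical partner of normal growth, was at -0.71. The list median of -0.19 changed sign under total-count scaling, to 0.16. Of 7 cytosolic J-domain genes, which deliver clients to Hsp70, JJJ3 rose, and of 8 mitochondrial chaperones HSP78, the mitochondrial disaggregase, and MDJ1 rose. MDJ1's call was lost without EtOH 8 h replicate 3 or control replicate 3. In the endoplasmic reticulum, 1 of 15 folding genes was called, ULI1 at 1.74 ± 0.28, and KAR2, the Hsp70 of that compartment, was at 0.97. The list had 3 rises without EtOH 8 h replicate 1, EtOH 8 h replicate 2 or control replicate 1. None of 32 proteasome genes was called, with a median of -0.46 and a range of -0.82 to -0.03.

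No member of the chaperone lists fell, but 2 Hsp70 genes outside them, whose proteins work on the ribosome, were among the largest falls. SSB1 (YDL229W), an Hsp70 that binds new chains as they emerge, had 778, 689 and 587 CPM in EtOH 8 h and 2991, 2964 and 3279 CPM in control, a log2 change of -2.17 ± 0.20 (edgeR adjusted p = 4.95e-10). SSZ1, its partner, fell by 1.70 ± 0.16 on the log2 scale and ZUO1, their J-domain protein, was not called, at -0.94. SSB1 shares 43.2% of its 50-base words with other genomic sites, so reads of its near copy SSB2 cannot be kept apart with certainty.

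The heat shock element was found in 13 of the 40 members of these 5 cytosolic and mitochondrial chaperone lists (32.5%). Of the 12 members called higher, 4 held it (33.3%), a share like that of all members. By list it was in 5 of 8 Hsp70, 2 of 5 small heat shock and sorting and 3 of 8 mitochondrial members. The Hsp90 and J-domain lists gave 2 of 12 and 1 of 7. Among all genes with a window, the element was in 6 of 377 called rises (1.59%) and 0 of 175 called falls, against 0.903% of all windows. AGGGG was found in 100 of those 377 rises (26.5%) and 46 of those 175 falls (26.3%).

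**Figure D3:**
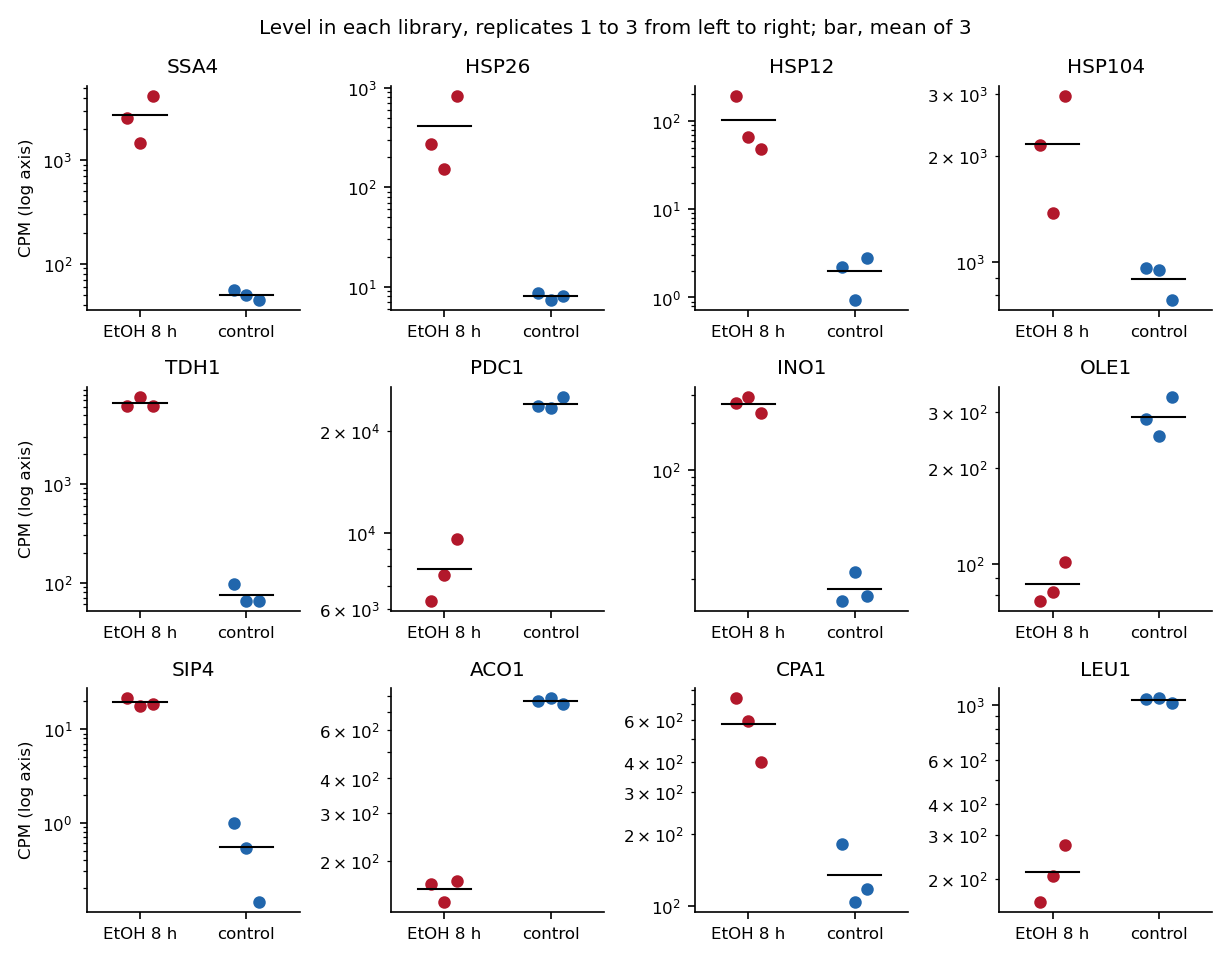
Level of 12 genes in each library (CPM, log axis), with the 3 EtOH 8 h libraries on the left and the 3 controls on the right of each panel; points are libraries and bars are group means. SSA4, HSP26, HSP12, HSP104, TDH1, INO1, SIP4 and CPA1 are higher without overlap, PDC1, OLE1, ACO1 and LEU1 are lower without overlap, and the EtOH 8 h libraries of HSP26 and HSP12 spread most.

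Among 22 general stress genes, 8 rose and 1 fell, with a median change of 0.66. HSP12 (YFL014W), a small membrane-associated stress protein, had 191, 65.4 and 48.6 CPM in EtOH 8 h and 2.21, 0.931 and 2.81 CPM in control. The treated libraries were all above 40 CPM and the controls all below 3, with 45 control counts in all, and the log2 change was 5.68 ± 0.55 (edgeR adjusted p = 8.64e-10). NQM1, a transaldolase of stressed cells, rose by 2.39 ± 0.21, and SPI1, a wall protein of stressed and stationary cells, by 2.19 ± 0.48. CTT1, cytosolic catalase and a classic target of Msn2 and Msn4, was not called, at -0.61 ± 0.26. AGGGG was in the window of 18 of these 22 genes, against 20.3% of all windows. In this list and the trehalose list together, it stood before 5 of 8 called rises and 4 of 4 called falls.

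Trehalose genes included falls and no rise. Trehalose is a disaccharide known to protect yeast membranes and proteins under stress, and of 7 genes of its synthesis and use 3 fell, none rose and the median was -0.87. TPS2, the phosphatase that completes the sugar, had 169, 145 and 131 CPM in EtOH 8 h, against 515, 563 and 428 CPM in control, a log2 change of -1.75 ± 0.23 (edgeR adjusted p = 1.88e-07). TPS1, the synthase, had 263, 224 and 232 CPM in EtOH 8 h and 555, 652 and 534 CPM in control, a change of -1.28 ± 0.13. Neither gene's groups overlapped. TSL1, a regulatory subunit, was at -1.04 ± 0.33. Under total-count scaling TPS2 alone of the 3 was still called lower, and TSL1's call was also lost on leaving out EtOH 8 h replicate 2 or 3 or control replicate 1 or 2. The list then had 1 rise as well.

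Glycogen genes were divided, with 2 rises and 1 fall among 12. GSY1, a glycogen synthase, fell to 85.9, 59.6 and 49.2 CPM in EtOH 8 h, against 262, 279.8 and 158 CPM in control (log2 change -1.84 ± 0.33). GPH1, glycogen phosphorylase, and GDB1, the debranching enzyme, which both break glycogen down, rose by 1.34 and 1.10, and both calls were lost without EtOH 8 h replicate 1. In glycerol synthesis, GPD1, the dehydrogenase of the first step, fell to 140.1, 109 and 111 CPM in EtOH 8 h, against 358, 394 and 269 CPM in control, while GPP2, a phosphatase of the second, rose by 1.73 ± 0.22 on the log2 scale. Of 20 oxidative defence genes, 2 rose and 2 fell, and the falls were 0 without EtOH 8 h replicate 1 and 1 without EtOH 8 h replicate 2 or control replicate 1.

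The ethanol-exposed plasma membrane is built from ergosterol, phospholipids and sphingolipids, and the genes of these branches did not move alike. In inositol and phospholipid synthesis, 4 of 17 rose and none fell, with a median of 0.63. INO1 (YJL153C), which makes inositol phosphate, had 269, 291 and 230.0 CPM in EtOH 8 h, against 14.4, 22.1 and 15.5 CPM in control. The groups were more than 10-fold apart, and the log2 change was 3.93 ± 0.50 (edgeR adjusted p = 9.93e-08). OPI3 (YJR073C), the methyltransferase of the last steps to phosphatidylcholine, had 557, 481 and 288 CPM in EtOH 8 h and 47.8, 47.7 and 48.1 CPM in control, a change of 3.21 ± 0.25. INO2, an activator of both genes, rose by 1.41 ± 0.20, and ITR1, an inositol transporter, by 1.07 ± 0.16, a call lost without EtOH 8 h replicate 1.

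Sterol and fatty acid genes had falls and no rise among the genes called. Of 27 ergosterol genes, 5 fell and none rose, with a median of -0.65 and a range of -1.29 for ERG13 to -0.17. The falls were 2 without EtOH 8 h replicate 1 or control replicate 3 and 3 without EtOH 8 h replicate 2, and none was called under total-count scaling, where the median was -0.31. OLE1 (YGL055W), the fatty acid desaturase, had 76.2, 81.3 and 101 CPM in EtOH 8 h, against 285, 253 and 335 CPM in control, with no overlap and a log2 change of -1.76 ± 0.29 (edgeR adjusted p = 5.98e-06). ELO2 and FAA4, which lengthen and activate fatty acids, were the other 2 of 3 falls among 13 genes. Both calls were lost under total-count scaling, where the list median of -0.23 became 0.11 and 1 rise was called. FAA1, another activating enzyme, was at 0.93 and not called, and the list had 1 rise without EtOH 8 h replicate 3 or control replicate 1. None of 22 sphingolipid genes was called, with a median of -0.35, or 0.002 under total-count scaling. Of the 22, 20 were below 0, and 15 were lower at an edgeR adjusted p under 0.05.

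Proteins of the membrane itself changed in both directions. PMA1, the plasma membrane proton pump, had 2354, 2015 and 1644 CPM in EtOH 8 h and 4889, 4434 and 4845 CPM in control (-1.24 ± 0.17, not called under total-count scaling). HSP30, a membrane protein known to restrain that pump, had 69.7, 57.2 and 159 CPM in EtOH 8 h and 10.9, 8.64 and 13.1 CPM in control, and YRO2, its relative, rose by 2.92 ± 0.33. PDR5, a multidrug exporter, had 2024, 2069 and 2393 CPM in EtOH 8 h, against 5991, 6245 and 6542 CPM in control, a log2 change of -1.53 ± 0.11 (edgeR adjusted p = 4.75e-12). These PDR5 groups did not overlap, and SNQ2, another exporter of the same family, fell by 1.21, a call lost under total-count scaling. SSU1, the sulphite exporter, had 541, 384 and 186 CPM in EtOH 8 h and 46.1, 52.0 and 45.1 CPM in control, a change of 2.96 ± 0.28. Among 28 cell wall integrity genes, only GSC2, the stress-induced glucan synthase, was called (1.84 ± 0.20), and 1 fall was added without EtOH 8 h replicate 1 or control replicate 1.

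Central carbon genes were called in both directions, and genes for the same enzyme step often differed in whether they were called. Of 18 glycolytic genes, 2 rose and 2 fell, and the median of -0.34 became 0.0045 under total-count scaling. TDH1 (YJL052W), the minor glyceraldehyde-3-phosphate dehydrogenase of slow growth, had 6146, 7532 and 6205 CPM in EtOH 8 h, against 96.7, 64.8 and 64.7 CPM in control. This was the largest rise among genes above 20 CPM, at 6.46 ± 0.56 (edgeR adjusted p = 1.29e-10), while TDH2 and TDH3, its major relatives, were at 0.03 and -0.58. ENO1, an enolase, had 5693, 6149 and 6497 CPM in EtOH 8 h and 937, 819 and 816 CPM in control, while ENO2, the other enolase, was at -0.69. TDH1 and ENO1 share 15.7% and 23.6% of their 50-base words with other genomic sites, so some reads could have come from their relatives. HXK2, the main hexokinase on glucose, and CDC19, pyruvate kinase, fell by 1.31 and 1.21 on the log2 scale, calls lost under total-count scaling.

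Enzymes between pyruvate and ethanol were also divided, with 4 rises and 4 falls among 22. PDC1 (YLR044C), the main pyruvate decarboxylase and among the most abundant mRNAs of these cells, had 6314, 7526 and 9648 CPM in EtOH 8 h and 23696, 23435 and 25192 CPM in control. No library overlapped, and the log2 change was -1.62 ± 0.15 (edgeR adjusted p = 2.15e-10). PDC6, a minor decarboxylase, rose by 3.59 ± 0.32 to 40.2, 30.8 and 15.8 CPM in EtOH 8 h, against no more than 3.09 CPM in any control. ADH2, the alcohol dehydrogenase known to consume ethanol, had 87.3, 71.5 and 46.9 CPM in EtOH 8 h and 25.6, 19.5 and 27.3 CPM in control (1.53 ± 0.20). ADH1, the dehydrogenase that makes ethanol, was not called, at 8219 ± 358 CPM in EtOH 8 h and 13949.5 ± 93.9 CPM in control (SD, n = 3 each). Its log2 change was -0.76 ± 0.11.

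In the tricarboxylic acid cycle, 4 of 19 genes fell and 1 rose, with a median of -0.63. Of the 4 falls, 3 were at the steps that follow citrate. ACO1 (YLR304C), aconitase, had 164, 141 and 169 CPM in EtOH 8 h, against 770.3, 786 and 746 CPM in control, a log2 change of -2.28 ± 0.16 (edgeR adjusted p = 4.75e-12). IDH1 and IDH2, the subunits of the next enzyme, had 116, 103 and 114 CPM and 139, 113 and 114 CPM in EtOH 8 h, against 359, 359.9 and 366 CPM and 385, 429 and 476 CPM in control. CIT2, the peroxisomal citrate synthase, rose by 1.03, a call lost without EtOH 8 h replicate 3 or control replicate 2 or 3, while CIT1, its mitochondrial counterpart, was at 0.07. SDH2, a succinate dehydrogenase subunit, was the fourth fall, lost under total-count scaling.

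Genes for growth on non-fermentable carbon included 6 rises and no fall among 13, with a median of 0.99. SIP4 (YJL089W), an activator of gluconeogenic genes, had 161, 450 and 68 counts in EtOH 8 h, against 8, 4 and 1 counts in control, or 21.6, 17.8 and 18.9 CPM against 0.981, 0.532 and 0.141 CPM. The groups were far apart but the control level was near the floor, and the fitted log2 change of 5.05 ± 0.61 depends on how such low counts are moderated. CRC1, the mitochondrial carnitine carrier, had 818 counts over the EtOH 8 h libraries and 20 over the controls. JEN1, the lactate and pyruvate transporter, rose by 2.03 ± 0.15, ADR1, an activator of ADH2, by 1.83 ± 0.25 and PCK1, which starts gluconeogenesis, by 1.26. The glyoxylate enzymes themselves were not called, at 0.35 for ICL1 and 0.48 for MLS1.

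**Figure D4:**
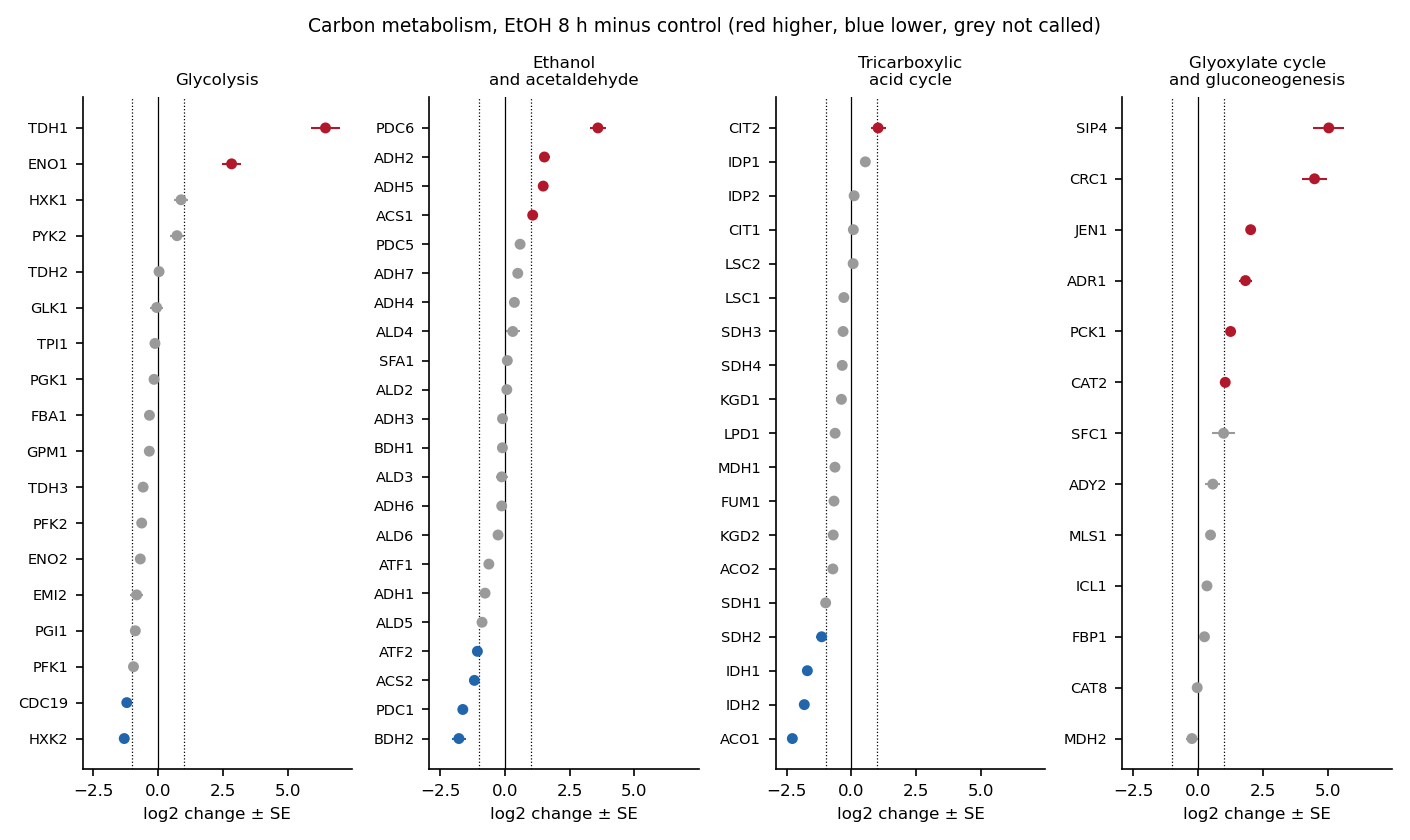
Log2 change in EtOH 8 h against control (x axis, points with bars of 1 SE) for every tested gene of the glycolysis, ethanol and acetaldehyde, tricarboxylic acid cycle, and glyoxylate and gluconeogenesis lists; red and blue points are called higher and lower. Rises and falls sit side by side within glycolysis (TDH1 6.46, HXK2 -1.31) and ethanol metabolism (PDC6 3.59, BDH2 -1.77), while the cycle holds ACO1 at -2.28 and the gluconeogenic group SIP4 at 5.05.

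Hexose transporter and sensor genes had 2 rises and 1 fall among 14. There were 0 rises and 2 falls without control replicate 3, and 2 falls also without EtOH 8 h replicate 1 or 2. Fitting the 6 compared libraries alone gave 1 rise and 1 fall. HXT1, the low-affinity hexose transporter of high glucose, had 226, 247 and 301 CPM in EtOH 8 h, against 702, 669 and 729 CPM in control (log2 change -1.44 ± 0.16, edgeR adjusted p = 6.34e-09). HXT4, a transporter of intermediate glucose, had 195, 183 and 66.7 CPM in EtOH 8 h and 100.0, 57.5 and 37.1 CPM in control, so that the groups overlapped. Its change was 1.21 ± 0.28, a call lost without control replicate 3. HXT7, a high-affinity transporter nearly identical to HXT6, was at 1.06 ± 0.39, a call lost without EtOH 8 h replicate 1 or control replicate 3 and with DESeq2. MAL31, a maltose permease, fell to 20.1, 21.8 and 17.2 CPM in EtOH 8 h, against 98.4, 86.0 and 71.8 CPM in control (-2.09 ± 0.25).

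Falls were frequent among ribosomal proteins and translation factors and few among ribosome biogenesis genes. Of 19 ribosomal proteins encoded by a single gene, 8 fell and 1 rose, with a median of -0.93, and 5 fell without EtOH 8 h replicate 1. RPS2 had 1160.0, 1263 and 1628 CPM in EtOH 8 h, against 3266, 3429.7 and 3871 CPM in control, without overlap, a log2 change of -1.38 ± 0.20 (edgeR adjusted p = 8.91e-07). The single rise, RPL39, was at 1.11 CPM in EtOH 8 h and 0.258 CPM in control, and its call was lost in 4 of the 6 leave-outs. Of 21 translation factors 5 fell, led by YEF3, the fungal elongation factor, at -1.37 ± 0.18, and 3 fell without EtOH 8 h replicate 1, EtOH 8 h replicate 2 or control replicate 3. Of 34 ribosome biogenesis genes 2 fell, and 1 fell and 1 rose without EtOH 8 h replicate 1. Under total-count scaling, the falls were 1 of 19, 1 of 21 and 0 of 34, with medians of -0.59, -0.38 and -0.04.

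The list of septin, separation and daughter genes gave 5 falls among 13 and a median of -0.85, with 3 falls without EtOH 8 h replicate 3 or control replicate 1. All 5 falls were among separation and daughter genes, and the septins CDC3, CDC10, CDC11, CDC12 and SHS1, at -0.93 to -0.31, were not called. CTS1, the chitinase that parts mother and daughter, had 380.3, 347 and 339 CPM in EtOH 8 h, against 1149, 1126 and 1228 CPM in control (-1.72 ± 0.24, edgeR adjusted p = 4.55e-07). Its groups did not overlap, and the other falls were DSE4, EGT2, DSE1 and DSE2, of which none was called under total-count scaling. None of 10 histone genes was called, though 1 fell without any 1 of EtOH 8 h replicate 2 or 3 or control replicate 1 or 2, nor were the cyclins CLN2 (-0.66) and CLN3 (-0.83). RNR4, a ribonucleotide reductase subunit, fell by 1.10, a call lost under total-count scaling.

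Amino acid synthesis divided by branch. Leucine, isoleucine and valine synthesis had 4 falls, no rise and a median of -0.69 over 11 genes, while arginine synthesis had 5 rises, no fall and a median of 0.85 over 11. The windows before LEU1 and BAT1, the largest falls of the first branch, and SNZ1, a large rise described below, are shown because they hold sites of known regulators of these genes. Capitals mark the Leu3 element (CCGG, any 2 bases, CCGG) and the Gcn4 element TGACTC, on either strand.
LEU1 (chrVII:478753-479002, minus strand): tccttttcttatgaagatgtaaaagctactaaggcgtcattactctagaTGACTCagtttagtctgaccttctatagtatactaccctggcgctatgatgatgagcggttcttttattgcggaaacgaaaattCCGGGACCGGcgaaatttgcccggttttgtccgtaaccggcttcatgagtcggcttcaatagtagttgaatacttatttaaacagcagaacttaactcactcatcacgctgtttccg
BAT1 (chrVIII:517182-517431, plus strand): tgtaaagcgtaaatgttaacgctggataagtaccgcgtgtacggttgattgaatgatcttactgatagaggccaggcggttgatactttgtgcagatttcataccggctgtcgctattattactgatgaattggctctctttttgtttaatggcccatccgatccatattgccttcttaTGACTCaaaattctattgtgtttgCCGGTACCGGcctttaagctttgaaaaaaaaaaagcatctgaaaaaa
SNZ1 (chrXIII:458058-458307, plus strand): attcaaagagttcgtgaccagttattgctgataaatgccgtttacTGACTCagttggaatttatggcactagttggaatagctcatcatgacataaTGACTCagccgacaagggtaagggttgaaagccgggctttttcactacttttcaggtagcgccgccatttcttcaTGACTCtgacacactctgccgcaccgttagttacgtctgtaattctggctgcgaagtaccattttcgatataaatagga
LEU1 held the 10-base Leu3 match 217 to 208 bases before the start and BAT1 147 to 138 bases before it, each with a single TGACTC, and SNZ1 held 3 TGACTC matches. The Leu3 element was in 7 of 5760 windows (0.122%), 3 of them before called falls and 0 before called rises, and in 2 of the 11 genes of the branch. TGACTC was in 419 of 5760 windows (7.27%), in 53 of 377 called rises (14.1%) and 10 of 175 called falls (5.71%). It stood before 9 of 11 arginine genes and 8 of 11 leucine, isoleucine and valine genes, 2 lists whose called members went in opposite directions. TGACTC was also before 13 of 19 purine and one-carbon genes, but before only 3 of the 21 thiamine and pyridoxine genes, the list that holds SNZ1.

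LEU1 (YGL009C), the isomerase of the leucine branch, had 162, 206 and 273 CPM in EtOH 8 h, against 1053, 1062 and 1013 CPM in control. The groups did not overlap, and the log2 change was -2.29 ± 0.24 (edgeR adjusted p = 4.8e-09). BAT1, the mitochondrial branched-chain aminotransferase, had 254, 277 and 342 CPM in EtOH 8 h and 873, 881 and 892 CPM in control, a change of -1.60 ± 0.22. ILV5 and ILV3, shared enzymes of the branch, fell by 1.24 and 1.12 on the log2 scale, calls lost under total-count scaling. BAT2, the cytosolic aminotransferase, was at 0.999, just under the threshold. The list had 1 rise with DESeq2, its size factors, total counts, no low-count filter or the 6 compared libraries alone. It also had 1 without EtOH 8 h replicate 3 or control replicate 3. BY4741 lacks LEU2, the step after LEU1, in treated and control cells alike.

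CPA1 (YOR303W), the small subunit of the carbamoyl phosphate synthetase for arginine, had 740.2, 596 and 400.0 CPM in EtOH 8 h, against 181, 103 and 117 CPM in control. Its groups did not overlap, and the change was 2.11 ± 0.18 (edgeR adjusted p = 1.29e-10). ARG4, ARG1 and ARG3, further steps of the pathway, rose by 1.51 to 1.77 on the log2 scale. ARO9 and ARO10, which break down aromatic amino acids to fusel alcohols, rose by 2.82 ± 0.28 and 2.35 ± 0.29. ARO4, at the entry to aromatic synthesis, fell by 1.12, a call lost under total-count scaling. STR3, which makes homocysteine from cystathionine, had 54.5, 111 and 41.1 CPM in EtOH 8 h and 8.46, 6.78 and 6.75 CPM in control (3.26 ± 0.47), and MET6, methionine synthase, rose by 1.57 ± 0.37. Of 15 nitrogen catabolism genes, 4 rose and none fell, with DAL1 at 1.71 and GDH2, a glutamate dehydrogenase, at 1.21. Without EtOH 8 h replicate 1 the list had 2 rises and 1 fall, and GDH2's call was lost.

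In the list of purine and one-carbon genes, 4 of 19 rose and 1 fell. GCV1, a subunit of the glycine cleavage complex, had 458, 403 and 182 CPM in EtOH 8 h, against 80.6, 68.6 and 71.7 CPM in control (2.25 ± 0.29, edgeR adjusted p = 1.64e-07). GCV2, a second subunit, rose by 2.21 ± 0.32, and SHM2, which makes glycine from serine, by 1.49 ± 0.36. All 3 genes were higher in every EtOH 8 h library than in any control, with replicate 3 the lowest of the treated ones.

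Thiamine and pyridoxine synthesis had the largest number of rises of any list, 9 of 21, with none falling and a median of 0.73. SNZ1 (YMR096W), which makes pyridoxal phosphate, had 299.9, 238 and 117 CPM in EtOH 8 h, against 34.3, 37.0 and 44.4 CPM in control. These groups did not overlap, and the log2 change was 2.51 ± 0.26 (edgeR adjusted p = 3.08e-09). THI4, of thiazole synthesis, had 19.4, 27.6 and 22.5 CPM in EtOH 8 h and 5.27, 5.85 and 6.47 CPM in control. Of the 9 rises, THI5, THI11, THI12 and THI13 are near-identical copies at low level whose reads cannot be assigned with certainty. BNA2, the first enzyme of NAD synthesis from tryptophan, had 47.6, 51.2 and 23.6 CPM in EtOH 8 h and 4.42, 3.46 and 3.52 CPM in control (3.46 ± 0.34). Its coding region overlaps that of YJR079W.

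Among metal and phosphate genes, ZRT1, the high-affinity zinc transporter, had 178, 161 and 105 CPM in EtOH 8 h and 51.4, 45.0 and 40.9 CPM in control (1.71 ± 0.23). PHO89, a sodium-phosphate transporter, had 1128, 1064 and 701 CPM in EtOH 8 h and 327, 255 and 175 CPM in control (1.93 ± 0.21). Of 24 iron regulon genes, 1 rose and 2 fell. Of 18 oxygen and heme genes, 1 rose and 3 fell, with YHB1, a nitric oxide dioxygenase, at -1.57 and HEM13 and HEM15, enzymes of heme synthesis, at -1.39 and -1.38. None of 14 vacuolar proton pump genes and none of 14 calcium genes was called, with medians of -0.39 and -0.21. Under total-count scaling these medians were -0.05 and 0.14.

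Some large changes lay outside these themes. YOR338W, a gene with no described role, had 130.5, 87.3 and 58.9 CPM in EtOH 8 h and 3.19, 3.46 and 2.11 CPM in control, a change of 4.98 ± 0.37 (edgeR adjusted p = 8.51e-12). GPM2, a relative of phosphoglycerate mutase, rose by 3.14 ± 0.39. MGA1, a relative of heat shock factor, fell to 8.04, 6.75 and 8.06 CPM in EtOH 8 h, against 52.3, 34.7 and 34.6 CPM in control (-2.45 ± 0.35), and HRP1, an mRNA processing factor, fell by 2.07 ± 0.16. The retrotransposon gag-pol frame YBL100W-B rose to 171 to 276 CPM in EtOH 8 h, by 3.51 ± 0.35, but 84.3% of its 50-base words occur elsewhere in the genome, so the reads belong to a family rather than to that copy.

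Several measures of library make-up moved with treatment. RNAs that are not normally polyadenylated were more frequent in EtOH 8 h libraries. SCR1, LSR1, NME1, RPR1, TLC1 and rRNA together gave 109.7 to 121 CPM of total counts in EtOH 8 h and 8.09 to 18.4 in control. SCR1, the signal recognition particle RNA, had 76.6, 70.5 and 84.7 CPM in EtOH 8 h and 2.82, 3.46 and 8.72 CPM in control. Transfer RNAs summed to 50.6 to 70.6 CPM of total counts in EtOH 8 h and 18.6 to 22.0 in control, and small nucleolar RNAs to 519 to 803 in EtOH 8 h and 305 to 333 in control. Short genes rose more often, with 17.6% of 255 genes of up to 300 coding bases called higher against 4.79% of 1315 genes above 2000 bases, and medians of 0.49 and -0.09. Across 5773 genes, change and coding length had a Spearman rho of -0.184, a description over genes that share libraries. The 20 most abundant genes took 14.4% to 15.7% of counts in EtOH 8 h and 18.3% to 18.8% in control. The part of these measures in the gene results was not tested.

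All 7 markers of mating type a, the strain's own, were detected in every library, and their sum was 966 to 1086 CPM of total counts in EtOH 8 h and 1419 to 1484 in control. STE2, the receptor for alpha factor, had 269.9, 254 and 259.7 CPM in EtOH 8 h and 627, 619.9 and 686 CPM in control (-1.30 ± 0.10, lost under total-count scaling). The 4 alpha markers summed to 70.8 to 76.6 CPM of total counts in EtOH 8 h and 44.0 to 47.7 in control, none being at 0. STE3, the receptor for a factor in alpha cells, had 9.51, 8.84 and 9.44 CPM in EtOH 8 h and 1.23, 1.46 and 1.27 CPM in control. Meiosis and sporulation genes, which act in diploids, had 6 rises and 1 fall among 20 (no fall without EtOH 8 h replicate 1 or control replicate 2), with REC8, a meiotic cohesin, at 14.5, 14.8 and 11.1 CPM in EtOH 8 h and 0.613, 1.06 and 0.984 CPM in control. A set of 7 defining meiosis markers, none at 0, summed to 98.9 to 108 CPM of total counts in EtOH 8 h and 85.4 to 101 in control. Whether other cell types contributed was not tested.

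HIS3, of which BY4741 keeps a part, gave 753, 2650 and 310 counts in EtOH 8 h and 339, 311 and 334 counts in control, a log2 change of 1.18 ± 0.11 after scaling.

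The 8 h sample was next set against the samples around it. Called against the same controls were 133 genes after 0.5 h in ethanol (2.18% of 6101), 143 after 1 h (2.34%), 173 after 2 h (2.84%), 306 after 4 h (5.02%), 623 after 8 h (10.2%) and 849 after 20 h (13.9%). These counts share 3 controls. The difference between times was therefore tested directly, and it involves no control.

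Against EtOH 4 h, 118 genes differed (1.93%), of which 113 were higher at 8 h (1.85% of 6101) and 5 were lower (0.082%). The 5 were LEU1, SSB1, PDC1, BAT1 and YHB1, all also lower than in control, and none of them was called under total-count scaling. LEU1 had 162, 206 and 273 CPM at 8 h, against a mean of 460.4 CPM at 4 h, a log2 change of -1.11 ± 0.24 (edgeR adjusted p = 0.00157). PDC1 averaged 7829.6 CPM at 8 h and 16384 CPM at 4 h (-1.07 ± 0.14). Of the 439 genes called higher than control, 86 were also higher at 8 h than at 4 h and none was lower. The 439 were chosen for high EtOH 8 h libraries, which also enter this contrast. These counts are therefore tilted towards rises and are given side by side only.

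The 113 genes higher at 8 h than at 4 h were spread over several lists, with 5 of 14 hexose transporters and sensors and 4 each of 22 general stress, 11 arginine and 19 purine and one-carbon genes. HXT4 had 195, 183 and 66.7 CPM at 8 h, against a mean of 20.3 CPM and at most 26.4 CPM at 4 h, a log2 change of 2.89 ± 0.31 (edgeR adjusted p = 1.79e-07). The groups did not overlap. ARO9 had 212, 158 and 54.4 CPM at 8 h and 38.5, 46.9 and 22.8 CPM at 4 h (2.00 ± 0.27), and ARO10 differed by 2.07 ± 0.29. ALD4, mitochondrial aldehyde dehydrogenase, had 734, 502 and 225 CPM at 8 h and 152, 126 and 74.5 CPM at 4 h (2.05 ± 0.31), although it was not called against control. The chaperones did not differ by the test, with SSA4 at -0.53 ± 0.52, HSP26 at -1.10 ± 0.53 and HSP104 at -0.40 ± 0.47. The 118 became 69 without EtOH 8 h replicate 1, 181 without EtOH 8 h replicate 3 and 67 without EtOH 4 h replicate 3.

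**Figure D5:**
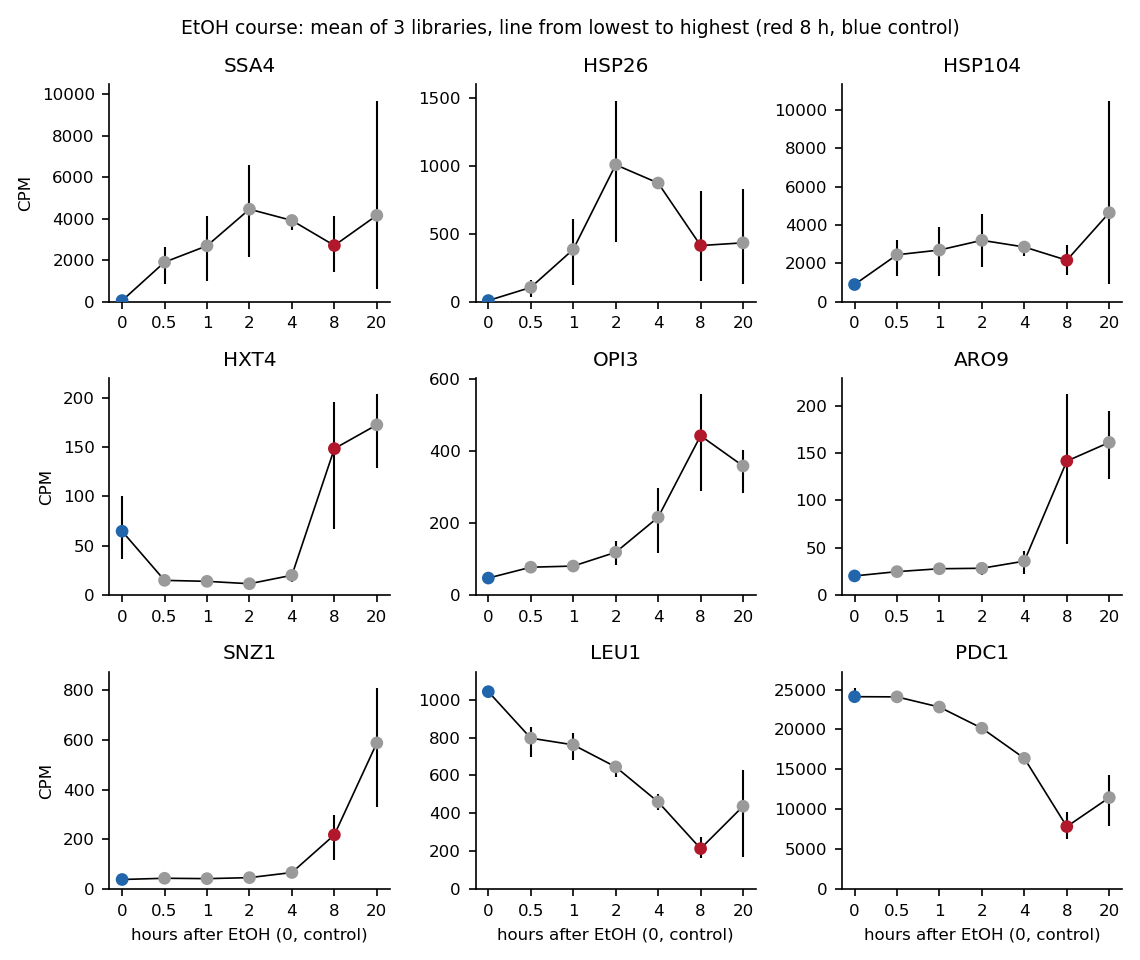
Mean level (CPM, linear axis from 0) of 9 genes against hours in ethanol (sampled times evenly spaced, control at 0 h in blue, 8 h in red), with vertical lines from the lowest to the highest of 3 libraries. SSA4, HSP26 and HSP104 are raised by 0.5 h, HXT4 lies below its control level until 4 h and is above it at 8 h, ARO9 and SNZ1 are highest at 20 h, and LEU1 and PDC1 are lowest at 8 h.

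The 3 EtOH 8 h libraries differed among themselves in the same genes. Replicate 3 had the most SSA4, HSP26, HSP104 and HSP42 and the least HXT4, ARO9, ARO10, ALD4, SNZ1, GCV1 and SSU1. It was also the shallowest library, with 3105804 counts. Replicate 2, the deepest, had the least SSA4, HSP26 and HSP104.

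Against EtOH 20 h, 200 genes differed (3.28%), of which 82 were higher at 8 h (1.34%) and 118 were lower (1.93%). FLO11, the adhesin of filamentous and surface growth, had 8.57, 12.7 and 11.4 CPM at 8 h, against 850.3, 642 and 98.2 CPM at 20 h, a log2 change of -5.57 ± 0.42 (edgeR adjusted p = 8.63e-11). Of its 50-base words, 28.0% recur in the genome. It had 15.0, 15.0 and 14.5 CPM in control, so that its 8 h libraries lay below both groups. PUT1, which starts proline breakdown, had 15.5, 16.3 and 13.6 CPM at 8 h and 109, 139 and 78.0 CPM at 20 h (-2.81 ± 0.25). SNZ1 was also lower at 8 h than at 20 h, by -1.42 on the log2 scale. MFA1, an a-factor gene, was higher, with 64.3, 83.3 and 136 CPM at 8 h and 20.7, 18.7 and 26.6 CPM at 20 h (2.07 ± 0.22).

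The chaperones SSA4 and HSP104 were not called between these times. SSA4 had 608, 2181 and 9695 CPM at 20 h and HSP104 925, 2511 and 10501 CPM, so that the 20 h libraries spread far more widely than those at 8 h. Other chaperones were lower at 8 h, with BTN2 at -2.02 and HSP78 at -1.39. The lists gave 2 of 8 for Hsp70, 2 of 5 for small heat shock and sorting and 3 of 8 for mitochondrial chaperones. HSP12 was also lower, with 191, 65.4 and 48.6 CPM at 8 h and 298, 387 and 133 CPM at 20 h (-1.41 ± 0.38). Without EtOH 20 h replicate 1 the 200 calls became 309 and the 82 rises 131, and the rises were 150 without EtOH 8 h replicate 1 and 52 without EtOH 8 h replicate 3. With the 6 compared libraries alone in the fit 3 genes were higher and 12 lower.

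Against SDS 8 h, the other membrane stress at the same time, 529 genes differed (8.67%), of which 326 were higher in EtOH 8 h (5.34%) and 203 were lower (3.33%). Under total-count scaling these became 597 higher and 82 lower. SSA4 had 2529.8, 1453 and 4138 CPM in EtOH 8 h, against 87.1, 86.0 and 87.9 CPM in SDS 8 h, a log2 change of 4.96 ± 0.62 (edgeR adjusted p = 1.07e-07). The Hsp70 list and the small heat shock list each had 4 members higher in EtOH 8 h, of 8 and 5. HSP12 was not told apart, at 191, 65.4 and 48.6 CPM in EtOH 8 h and 103, 151 and 183 CPM in SDS 8 h (-0.51 ± 0.37, edgeR adjusted p = 0.272). HXT4 differed by 3.70 ± 0.32 and SSU1 by 3.12 ± 0.28. Haploid and mating genes gave 9 of 22 higher in EtOH 8 h, with MFA1 at 2.78 ± 0.23, and iron genes 8 of 24.

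The genes lower in EtOH 8 h than in SDS 8 h were led by acid phosphatases and a wall protein. PHO5, the secreted acid phosphatase, had 109, 81.9 and 104 CPM in EtOH 8 h, against 1355, 1229 and 1068 CPM in SDS 8 h (-3.64 ± 0.20, edgeR adjusted p = 1.91e-15). NCW2, a cell wall protein, had 52.9, 55.5 and 55.3 CPM in EtOH 8 h and 599, 616 and 698 CPM in SDS 8 h (-3.55 ± 0.16). Neither gene's groups overlapped. ACO1 was lower by 3.07 on the log2 scale, and multidrug and weak-acid exporters gave 9 of 19 lower, cell wall integrity genes 7 of 28 and tricarboxylic acid cycle genes 6 of 19. Of the 439 genes called higher in EtOH 8 h than in control, 192 were also higher than in SDS 8 h and 11 were lower. Of the 184 called lower than in control, 74 were also lower than in SDS 8 h and 5 were higher. Both comparisons use the EtOH 8 h libraries, so these counts are given side by side only.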

How the data were processed

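Poly(A) RNA of 39 BY4741 samples was sequenced, and the authors deposited whole-number counts of reads per gene in a table of 7127 features. The submitters' processing notes list featureCounts 2.0.1, the aligner STAR 2.7.8, the trimmer Trimmomatic 0.39 and, for read quality, FastQC 0.11.9. Whether counting used strand or reads that match several places is not given in the sources used here, so antisense, overlapping and near-identical genes are uncertain.

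From these counts, features with low counts were removed with filterByExpr, which left 6101, and edgeR 4.0.16 (R 4.3.3) was run with TMM scaling and its quasi-likelihood test on all 39 libraries in 13 groups, with 26 residual degrees of freedom and no covariate. A gene was called at a Benjamini-Hochberg adjusted p under 0.05 and an absolute log2 change of at least 1. The SE is the log2 change divided by the square root of F. The 6 compared libraries held 3105804 to 21167236 counts. The p-values rest on the spread between the 3 replicates of a group, estimated over all 13 groups and not from the compared groups alone. A limit for a count of 0 is 3 counts and covers counting error only. The procedure was tested on simulated counts that gave a gene the same spread in all groups. That test cannot show errors where groups differ in spread. Alternatives were DESeq2 1.42.0, its size factors, total counts, no filter, a replicate block, the compared libraries alone and leaving out each library.

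Gene lists and the genes compared were chosen with earlier results of these data known. Genes were named by a rule: the 15 largest changes in each direction with a mean of at least 20 CPM and no overlap between groups, up to 4 members of each list with the largest change, a followed set, and the 5 largest differences in each direction against EtOH 4 h, EtOH 20 h and SDS 8 h. Further list members in the text were named after their values were seen. The result for 1 called list member is not reported here. Of 984 list entries 971 were tested, which are 961 distinct genes since some stand in more than 1 list. Coordinates, windows and the share of 50-base words that recur come from the R64 reference (RefSeq), which is also the authors' build per the submitters' processing notes.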

Additional observations from a re-analysis of the deposited data

Results flagged for a closer look

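The results below stood out because the change against control in EtOH 8 h ran opposite to that at another time or stress, and in each the difference itself was tested with edgeR. HXT4 was higher in EtOH 8 h than in EtOH 4 h by 2.89 ± 0.31 (SE, log2, edgeR adjusted p = 1.79e-07), being 1.21 against control at 8 h and -1.68 at 4 h. HXT7 differed between the same times by 3.58 ± 0.51 (edgeR adjusted p = 2e-05), at 1.06 and -2.52, and 95.1% of its 50-base words recur in the genome. As given above, the HXT4 libraries at 8 h overlapped control, and its call against control was lost without control replicate 3. The HXT7 call against control was lost without EtOH 8 h replicate 1 or control replicate 3 and with DESeq2. Fitting the 6 compared libraries alone left 1 rise in the hexose list, so HXT4 and HXT7 were not both called there. Against SDS 8 h, HXT4 differed by 3.70 ± 0.32 and HXT7 by 3.80 ± 0.52, with SDS 8 h at -2.49 and -2.74 against control. YCL021W-A differed from SDS 8 h by 2.62 ± 0.18, at 1.39 in EtOH 8 h and -1.23 in SDS 8 h against control. NCW2, a cell wall protein, differed by -3.55 ± 0.16, at -1.42 in EtOH 8 h and 2.13 in SDS 8 h against control.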

How the results depend on the processing

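Against control, the numbers of higher and lower genes stayed within 1.5 times of 439 and 184 with DESeq2 (440 and 172), its size factors (446 and 172), no low-count filter (513 and 144), the 6 libraries alone (426 and 158) and single libraries left out (421 to 463 and 142 to 188), and moved only with total counts (865 and 42). Control and ethanol samples were drawn from 1 aliquot of each culture, but the labels do not say that a number marks the same culture throughout, and the samples were not treated as paired: same-number deviations of EtOH 8 h libraries correlated at 0.131, 0.025 and 0.087 with control and at 0.26, 0.091 and 0.329 with EtOH 4 h. Each library correlated best with its own number in control, but EtOH 8 h replicate 2 correlated best with EtOH 4 h replicate 1, a hint from the data and not the design. With a replicate block the calls were 435 higher and 185 lower. Against EtOH 4 h, total counts gave 226 calls, 226 higher and 0 lower, and the 6 libraries alone gave 66, 63 and 3, while leave-outs gave 67 to 181 calls, 64 to 169 higher and 1 to 18 lower. Against EtOH 20 h, the 6 libraries alone gave 15 calls, 3 higher and 12 lower, and leave-outs gave 152 to 309 calls, 52 to 150 higher and 88 to 178 lower. Against SDS 8 h, total counts gave 597 higher and 82 lower, and leave-outs 302 to 348 higher and 185 to 218 lower. The causes were not tested. Of 278 named genes, 277 kept their side of the threshold with DESeq2, 278 with its size factors, 218 with total counts, 266 without the filter, 277 with the block, 273 with the 6 libraries alone and 254 to 269 as libraries were left out. No gene called in either fit changed sign. Among genes called in neither, 2 changed sign with total counts and 2 without EtOH 8 h replicate 1. Leaving out EtOH 8 h replicate 3 or control replicate 3 changed the sign of 1 each. All were at most 0.306 in size in the main fit. At 3105804 counts EtOH 8 h replicate 3 limits genes near 1 CPM.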
